A study of Mus musculus with 6 samples.

Results

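Regulated exocytosis and secretory granule genes were examined as a group of 54 genes among the 21887 protein-coding mouse genes of RefSeq. They were chosen by name for what their proteins do, with earlier results of these data known. All 54 were found in the gene table. They comprise 10 membrane SNAREs, 12 SNARE regulators and priming factors, and 10 synaptotagmins and calcium sensors. The remaining groups are 11 synaptic vesicle and Rab3 proteins and 11 proteins of dense-core granules. Snap91, a clathrin assembly protein, was placed with the SNARE regulators and priming factors. The data are peak lists from chromatin immunoprecipitation and sequencing (ChIP-seq) of Foxa1 and Foxa2 in C57BL/6 mouse prostate tumor cells. Foxa1 was precipitated after tamoxifen for 2 weeks and for 6 months, Foxa2 at the same times, and an input was sequenced at each time. All groups received tamoxifen, and the labels used here name neither the allele it acts on, nor the cell type that carries it, nor an untreated control. Per the labels' protocols, 3 mouse prostates were taken for a preparation and shredded whole, so the chromatin came from every cell type of the tissue, and a place bound in few cells cannot be told apart from one bound weakly in many. The 6 libraries form 6 groups of 1. No difference below therefore has a replicate check, none was tested, and Foxa1 and Foxa2 at 6 months may share chromatin.

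Regulated exocytosis is the release of stored vesicles or granules when calcium rises. A vesicle SNARE such as a VAMP zips together with syntaxin and SNAP-25 at the plasma membrane, priming factors ready the complex, and synaptotagmins trigger fusion. In dense-core granules, chromogranins and secretogranins pack the cargo and prohormone convertases mature it. In the prostate, dense-core granules mark the scattered neuroendocrine cells, and chromogranin A and synaptophysin are standard markers of neuroendocrine tumours. Foxa1 and Foxa2 are forkhead pioneer factors with closely similar DNA-binding domains. Foxa1 is best known in luminal prostate cells, Foxa2 in the developing gland and in neuroendocrine tumours. Gene expression was not measured in these libraries, so the values below are numbers and heights of bound regions, and the tissue label could not be set against marker expression.

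A region was counted for a gene when its summit lay inside the gene body, or otherwise when that gene's end was the nearest one within 100 kb. The bases whose summits would go to a gene are its territory. The lists held 54226 regions for Foxa1 at 2 weeks, 35869 for Foxa1 at 6 months and 34942 for Foxa2 at 6 months. The Foxa2 library of 2 weeks yielded 1 region, which lay 16.55 Mb from the nearest member, Pcsk2, so no 2-week Foxa2 value exists for these genes. The lists carry no read depth. A longer list can come from a deeper or cleaner library, and a gene without a region is one without a called region in that list.

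Promoter sequence bears on the few members whose start sites were bound. RefSeq promoter sequences (GRCm38.p6, the same coordinates as mm10) were held for 41 of the 54 members, with 52 start sites. No member promoter, taken as the 250 bases before the start, overlapped a 2-week Foxa1 region, against 3.64% of all 21263 promoters in the table. At 6 months 1 member promoter overlapped a Foxa1 region (Pcsk1; 2.23% of all promoters did) and 2 overlapped a Foxa2 region (Chga and Pcsk1; 2.14% of all). The sequences of these bound promoters are shown, with that of Stx2, which holds the same forkhead motif as Pcsk1 but no region. Capitals mark the motif TGTTTAC or its reverse complement, and each sequence is the strand of its gene, 5′ to 3′.
Pcsk1 (plus strand, chr13:75089607-75089856): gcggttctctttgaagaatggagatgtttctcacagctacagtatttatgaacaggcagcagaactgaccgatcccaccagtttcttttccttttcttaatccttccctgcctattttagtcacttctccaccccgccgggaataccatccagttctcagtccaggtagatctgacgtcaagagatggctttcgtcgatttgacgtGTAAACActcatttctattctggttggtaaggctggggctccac
Chga (plus strand, chr12:102554691-102554940): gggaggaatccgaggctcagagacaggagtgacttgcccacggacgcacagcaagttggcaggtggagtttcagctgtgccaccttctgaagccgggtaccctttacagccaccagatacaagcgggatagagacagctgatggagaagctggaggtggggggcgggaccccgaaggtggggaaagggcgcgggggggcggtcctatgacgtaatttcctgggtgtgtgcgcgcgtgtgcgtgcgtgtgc
Stx2 (minus strand, chr5:129008573-129008822): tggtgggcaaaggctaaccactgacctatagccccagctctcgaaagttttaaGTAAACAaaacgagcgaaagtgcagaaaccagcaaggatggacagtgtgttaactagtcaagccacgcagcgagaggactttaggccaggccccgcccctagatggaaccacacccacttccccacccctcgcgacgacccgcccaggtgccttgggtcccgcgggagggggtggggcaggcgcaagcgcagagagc

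In Pcsk1 the motif lies on the strand opposite to the gene, and its printed form begins 44 bases before the start. Both 6-month regions cover the whole printed window: the Foxa1 region runs from 75089190 to 75089955 and the Foxa2 region from 75089280 to 75089934 on chromosome 13. The RefSeq gene extends a further 437 bases before this start site, so another transcript of Pcsk1 may begin within or before the window. The motifs searched, on both strands, were TGTTTAC, the forkhead consensus, and its variants TGTTTGC, then TATTTAC, and also TATTTGC. Chga has none of these 4 in its 250 bases. A 6-month Foxa1 region at Chga, chr12:102554378-102554673, ended 17 bases before this window. In Stx2 the motif sits 197 bases before the start. Over the 52 member promoters TGTTTAC was found in 2 (Pcsk1 and Stx2), TATTTGC in 2 (Ptprn and Syn2) and the other motifs in none. Of all promoters of the same length 2.62% held TGTTTAC, 3.93% TGTTTGC, 2.37% TATTTAC and 2.23% TATTTGC. A match is a match of letters only and does not mark a site of binding.

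The members together held 201 Foxa1 regions at 2 weeks, 271 Foxa1 regions at 6 months and 270 Foxa2 regions at 6 months. With the full lists, the number of module regions was thus higher at 6 months although those lists were shorter. This rise depended on how regions were counted. After joining regions less than 1 kb apart the module held 175, 173 and 192, where the joined lists held 43586, 22856 and 24670. At or above a -log10 q of 5 the module held 127, 132 and 120, where the lists held 32416, 15366 and 15093. Exocytosis genes are long: the median member territory was 114 kb, against 45.8 kb over all genes, and when all genes were ranked into 10 equal bins of territory, 19 members fell in the highest bin (201 kb and more). The numbers were therefore set beside the mean of the other genes in the same bin, summed over members. Genes of like territory would hold 222, 161 and 157 regions in the 3 lists. The ratio was 0.905 (95% counting interval 0.784 to 1.04) for Foxa1 at 2 weeks, 1.68 (1.49 to 1.89) for Foxa1 at 6 months and 1.72 (1.52 to 1.94) for Foxa2 at 6 months. These exact Poisson intervals cover counting error only, and neighbouring regions are not independent, so they are too narrow. With 20 bins of territory in place of 10 the 6-month ratios were 1.47 and 1.51. Without Snap25 and Syt1, the members with most regions at 6 months, the ratios were 0.919, 1.44 and 1.41.

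**Figure D1:**
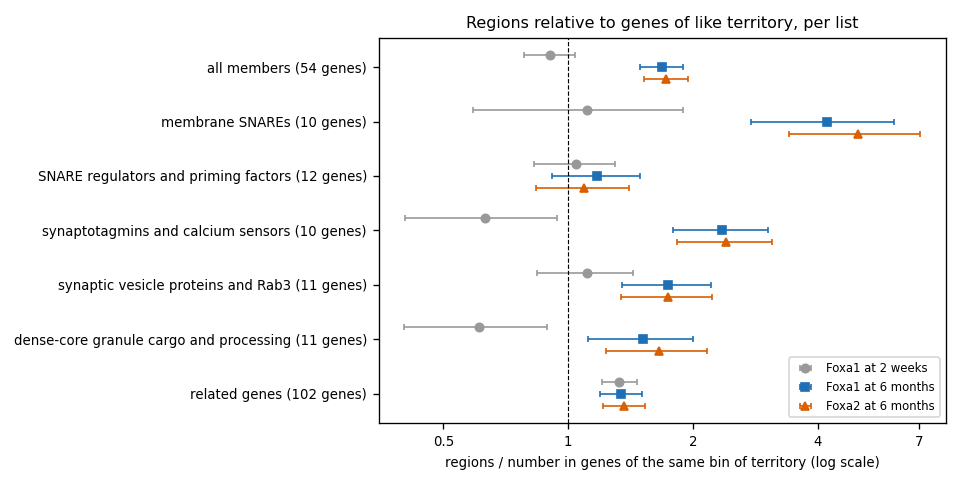
Regions assigned to all 54 members, to each role group and to 102 related genes, divided by the number in genes of the same bin of territory (log axis; bars are exact Poisson 95% counting intervals of 1 library each). All 54 members lay at 0.905 in the 2-week Foxa1 list and at 1.68 and 1.72 in the 6-month lists, and the membrane SNAREs at 4.20 and 4.99 at 6 months (1.00 and 0.994 without Snap25).

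At least 1 region was held by 35 members (Foxa1, 2 weeks), 35 members (Foxa1, 6 months) and 36 members (Foxa2, 6 months). Over all genes the shares with a region were 49.6%, 33.8% and 35.4%, and genes of like territory would give 33.5, 26.4 and 27.2 members. The 2-week count was thus near that of genes of like territory, and the 6-month counts were above it. The median member held 1, 2.5 and 2.5 regions, where the median of all genes was 0 in each list. Members with more regions than the mean of their own bin numbered 15, 28 and 27, against 17.4, 15.4 and 15.9 from territory.

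The numbers were uneven among members. The 10 members with the most regions (Syt1, Ptprn2, Snap25, Syn3, Cadps, Syn2, Syt7, Cadps2, Sv2b and Cplx2) held 56.2%, 57.2% and 60.7% of the module's regions in the 3 lists. Regions in all 3 lists were found at 25 members (26.6% of all genes; 22.3 members from territory). A 2-week Foxa1 region with none at 6 months was found at 6 members (17.8% of all genes; 8.31 from territory): Snap23, Stx3, Vamp8, Syt4, Unc13b and Scg3. The opposite pattern, no region at 2 weeks and regions of both factors at 6 months, was found at 8 members (4.2% of all genes; 2.56 from territory): Vamp2, Syt9, Syt13, Chga, Scg5, Pcsk2, Cpe and Rph3a. In 4 of these 8 (Vamp2, Syt13, Pcsk2 and Cpe) it rested on 1 or 2 regions per list. No region in any list was found at 10 members (43.8% of all genes; 17.0 from territory): Snap29, Stx2, Vamp1, Vamp3, Syt5, Syt11, Sv2a, Unc13a, Vgf and Rab3a. The remaining 5 members (Syn1, Syp, Cplx1, Chgb and Ptprn) held 0 or 1 region in every list.

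**Figure D2:**
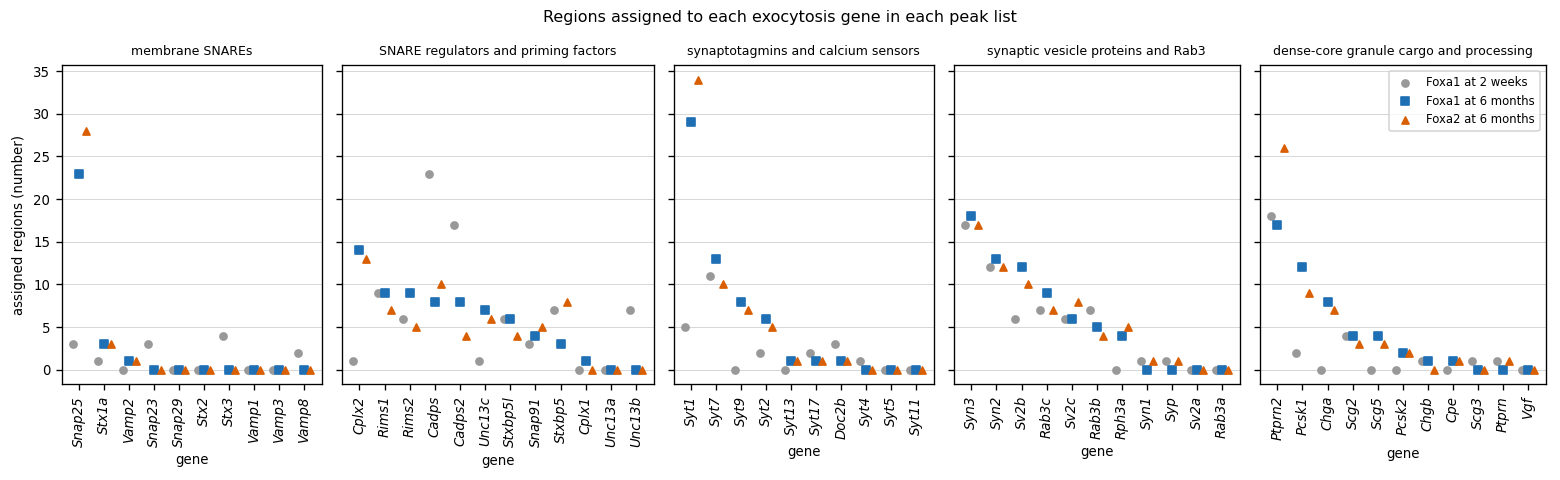
Number of regions assigned to each of the 54 members (vertical axis) in each list (Foxa1 after 2 weeks, Foxa1 and Foxa2 after 6 months), by role group; each point is 1 library. Syt1 and Snap25 stand highest at 6 months (29 and 23 Foxa1 regions, 34 and 28 Foxa2 regions), while Cadps stands highest in the 2-week Foxa1 list (23).

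Foxa1 regions were more numerous at 6 months than at 2 weeks for 23 members, fewer for 16 and equal for 15, of which 10 held none in any list. Over all genes 13.1% held more and 36.3% held fewer, and genes of like territory would give 10.2 members with more and 23.0 with fewer. With lists of equal length (34942 regions each) the shares over all genes were 17.4% and 26.6%, and 29 members held more and 11 fewer. Genes of like territory would then give 13.9 and 16.9 members. After joining regions less than 1 kb apart, 20 members held more and 21 fewer, against 7.55 and 24.9 from territory. The shares over all genes were then 9.75% and 37.8%. At or above a -log10 q of 5, 18 members held more and 19 fewer, against 6.70 and 22.8 from territory. Over all genes these shares were 8.15% and 33.2%. A difference of at least 5 regions was used to name a gain or a loss of regions. A gain of at least 5 Foxa1 regions was counted at 8 members, or 14.8% (Snap25, Syt1, Syt9, Sv2b, Cplx2, Unc13c, Chga and Pcsk1), against 2.49% of all genes and 3.30 members from territory. A loss of at least 5 was counted at 3 members, or 5.56% (Unc13b, Cadps and Cadps2), against 7.68% of all genes and 7.62 members from territory. At equal list length the module held 135, 267 and 270 regions. A gain of at least 5 was then counted at 10 members (18.5%), against 3.51% of all genes and 4.67 members from territory. A loss was counted at the same 3 members as with the full lists, against 3.06% of all genes and 3.33 members from territory. The share of members with a loss was thus below that of all genes with the full lists and above it at equal length. At or above a -log10 q of 5 it was also above, with 6 members (11.1%) against 4.84% of all genes. These were Syt7, Syn3, Unc13b, Cadps, Cadps2 and Ptprn2. Genes of like territory would give 5.69 members with such a loss, so the count was near that number. Gains at that threshold were counted at 6 members, against 0.535% of all genes and 0.862 members from territory. Snap25, Syt1, Syt9, Cplx2 and Chga kept a gain of at least 5 at equal length, at or above a -log10 q of 5 and after joining regions less than 1 kb apart, but the gain at Chga lay outside its body. The gains at Pcsk1 and Sv2b ended with the higher -log10 q and with joining, and that at Unc13c with joining.

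The membrane SNAREs held 13 Foxa1 regions at 2 weeks, 27 at 6 months and 32 Foxa2 regions at 6 months, or 1.11, 4.20 and 4.99 times the number of genes of like territory. Of the 6-month regions, 23 and 28 were those of Snap25, and without it the other members of the group held 10, 4 and 4, with ratios of 1.30, 1.00 and 0.994. Snap25 encodes the plasma membrane SNARE of neurons and endocrine cells. Snap25 held 3 Foxa1 regions at 2 weeks, 23 at 6 months and 28 Foxa2 regions at 6 months. Genes in its bin of territory held a mean of 4.08, 2.45 and 2.39, and in both 6-month lists Snap25 held more regions than every other gene of that bin. Stx1a, the syntaxin partner of SNAP-25 at the plasma membrane, held 1, 3 and 3. Vamp2, the vesicle SNARE of synaptic vesicles and granules, held 0, 1 and 1. The counts of these partners stayed at 3 or below in each list.

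A few other SNAREs held regions at 2 weeks only. Stx3, a syntaxin of the apical membrane of epithelia, held 4 Foxa1 regions at 2 weeks and none of either factor at 6 months. Snap23, the widely expressed relative of SNAP-25, held 3, 0 and 0, and Vamp8, a SNARE of exocrine granules and endosomes, held 2, 0 and 0. Their strongest 2-week regions included one inside Snap23 with a fold enrichment of 9.37. Each of these differences is under 5 regions, and fewer regions at 6 months was the more common direction over all genes. Snap29, Stx2, Vamp1 and Vamp3 had no region in any list.

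At Snap25 the 6-month regions lay in the lower part of the gene and below it. Of the 23 Foxa1 regions, 9 lay in the body and 14 between 0.445 and 72.4 kb below the gene's lower-coordinate end. The strongest in both 6-month lists was the same place 23.5 kb outside the gene: chr2:136689176-136692044 for Foxa1, with a fold enrichment of 9.52, and chr2:136689302-136691408 for Foxa2, with 9.38. A 2-week Foxa1 region was also called there, and 2 of the 23 Foxa1 regions of 6 months overlapped a 2-week region. With Foxa2, 20 of the 23 overlapped. Several of the regions were close neighbours: after joining those less than 1 kb apart, Snap25 had 3, 9 and 14, and the longest chain at 6 months joined 10 Foxa1 regions.

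Synaptotagmins and calcium sensors held 24, 59 and 59 regions, or 0.631, 2.35 and 2.41 times the number from territory. Without Syt1 the ratios were 0.637, 1.61 and 1.37. Syt1, the calcium sensor of fast release, held 5 Foxa1 regions at 2 weeks, 29 at 6 months and 34 Foxa2 regions at 6 months. The mean of its bin was 8.19, 6.54 and 6.32, so Syt1 was below it at 2 weeks and far above it at 6 months. At 2 weeks 45.8% of the other genes in the bin held fewer regions and 48.2% held more, so Syt1 was near the middle. All 29 and all 34 of the 6-month regions lay inside its 513 kb body, spread over 496 kb and 497 kb. None overlapped a 2-week Foxa1 region, while 23 of the 29 overlapped a Foxa2 region. Joined at 1 kb, Syt1 still had 3, 19 and 24.

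Syt9, another fast calcium sensor, held 0, 8 and 7 regions, all in its body. It had the strongest member region of both 6-month lists: chr7:107419079-107422582 for Foxa1, with a fold enrichment of 14.7 and a -log10 q of 68.5, and chr7:107419747-107421276 for Foxa2, with 14.6 and 55.5. The summits were 50.4 and 50.3 kb above the lower end of the gene, and no 2-week region was called there. Syt7, a high-affinity sensor that acts in granule and lysosome exocytosis, differed from these. It held 11, 13 and 10 regions, and 6 of its 13 Foxa1 regions of 6 months overlapped a 2-week region. The strongest 2-week region of the whole module was 29.5 kb outside Syt7 (chr19:10358641-10360867, fold enrichment 18.4, -log10 q 87.1). It overlapped regions of both factors at 6 months. The highest fold enrichment at Syt7 in the 6-month lists was 5.92 for Foxa1 and 10.0 for Foxa2. Those summits lay at another place, 22.6 and 22.5 kb outside the gene, and fold enrichments rank regions only within a list. Syt2 held 2, 6 and 5, and Syt5 and Syt11 held none.

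**Figure D3:**
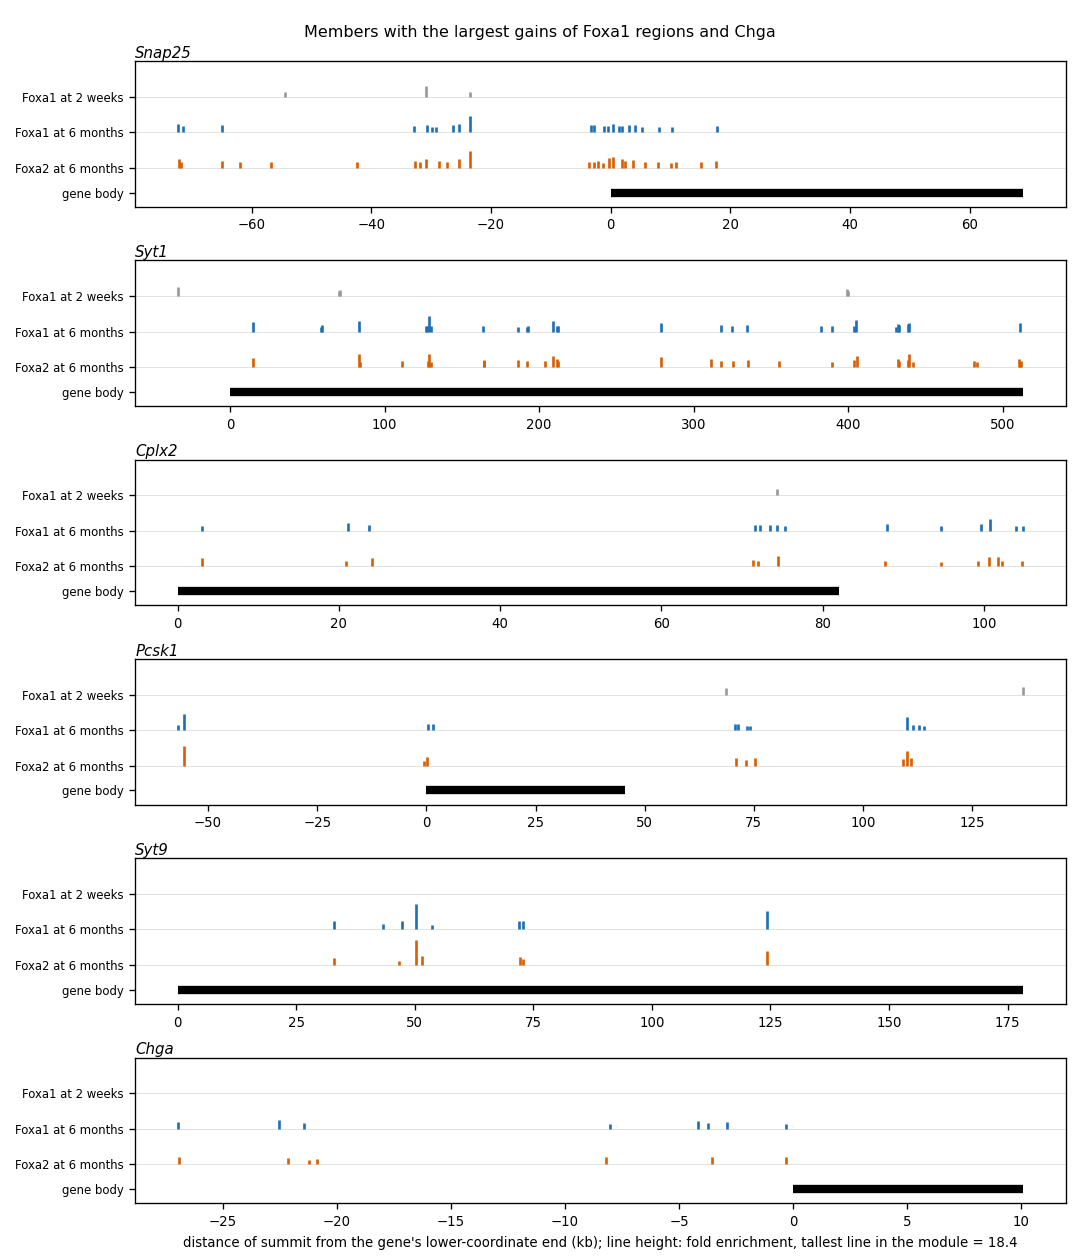
Summits at the 5 members with the largest gain of Foxa1 regions and at Chga, by distance from the gene's lower-coordinate end in kb (black bar, gene body; 1 row per list; line height, fold enrichment). Snap25 has 3 summits at 2 weeks and 23 and 28 at 6 months; Syt9 and Chga have none at 2 weeks.

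Regulators and priming factors were the group closest to genes of like territory, with 80, 69 and 62 regions and ratios of 1.04, 1.18 and 1.09 (1.09, 0.978 and 0.900 without Cplx2). Within the group the members went in opposite directions. Cplx2, a complexin that clamps and assists the SNARE complex, held 1 Foxa1 region at 2 weeks, 14 at 6 months and 13 Foxa2 regions. In its bin of territory 0.321% of the other genes had a gain at least as large. Of its 14 Foxa1 regions 8 lay in the body and 6 lay 5.99 to 22.9 kb above it, and 1 overlapped the 2-week region. Unc13c, a Munc13 priming factor, held 1, 7 and 6. Its relative Unc13b held 7, 0 and 0, and all 7 lay in its body. The third relative, Unc13a, had no region.

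Cadps and Cadps2, which encode the CAPS proteins that prime dense-core granules, held more regions at 2 weeks than at 6 months. Cadps held 23 Foxa1 regions at 2 weeks, 8 at 6 months and 10 Foxa2 regions. For Cadps2 the counts were 17, 8 and 4. Of the 2-week regions, 5 of 23 at Cadps and 1 of 17 at Cadps2 overlapped a Foxa1 region of 6 months. Of the 8 Foxa1 regions of 6 months at Cadps2, 7 had no 2-week region at their place. The highest fold enrichment was 10.6 in the 2-week Foxa1 list and 6.07 in the 6-month one at Cadps, and 9.93 and 5.21 at Cadps2. At both genes the place differed between the lists, and fold enrichments rank regions only within a list.

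Rims1 and Rims2, active zone scaffolds that bind Rab3, held 9, 9 and 7 and 6, 9 and 5 regions. Stxbp5, or tomosyn, which binds syntaxin and restrains fusion, held 7, 3 and 8, and none of its 3 Foxa1 regions of 6 months overlapped a 2-week one. Its paralogue Stxbp5l held 6, 6 and 4. Snap91, a clathrin assembly protein of vesicle recycling, held 3, 4 and 5, and 3 of its 4 Foxa1 regions of 6 months overlapped a 2-week region.

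**Figure D4:**
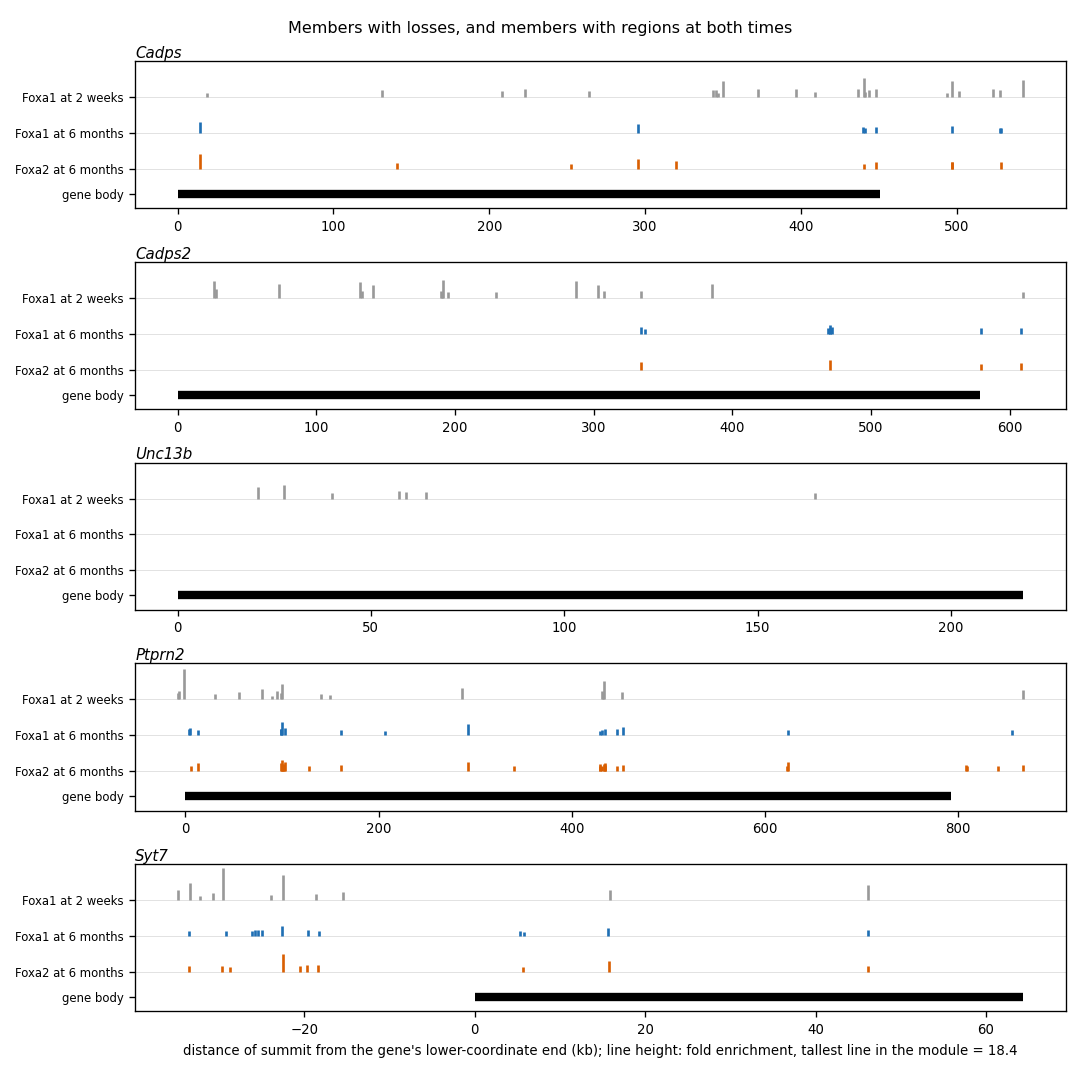
Summits at Cadps, Cadps2 and Unc13b, which lost at least 5 Foxa1 regions, and at Ptprn2 and Syt7, which held similar numbers at both times (axes as for the gaining genes). Unc13b has 7 summits at 2 weeks and none at 6 months; the tall 2-week line 1.80 kb outside Ptprn2 (fold enrichment 17.1) has none at its place at 6 months.

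Synaptic vesicle and Rab3 proteins held 57, 67 and 65 regions, or 1.11, 1.74 and 1.74 times the number from territory (0.925, 1.53 and 1.55 without Syn3). The synapsins, which tether vesicles, held similar numbers in each list: 17, 18 and 17 at Syn3 and 12, 13 and 12 at Syn2. At Syn3, similar numbers did not mean the same places, since 4 of its 18 Foxa1 regions of 6 months overlapped a 2-week region. All Syn3 regions lay in its body, which also holds other genes: 7 of the 2-week summits were inside Timp3 too, and 1 summit in each 6-month list was inside Fbxo7. Sv2b, a vesicle membrane glycoprotein, held 6, 12 and 10, and Sv2c held 6, 6 and 8. In the body of Sv2b the counts were 1, 8 and 7. Rab3c, a GTPase of secretory vesicles, held 7, 9 and 7, and the strongest region of each of its lists was the same place (chr13:110143573-110145400 at 2 weeks, fold enrichment 14.9; 11.1 and 11.9 at 6 months). Rab3b held 7, 5 and 4. Rph3a, a Rab3 effector, held 0, 4 and 5, all 16.6 to 56.2 kb outside the gene. Syp, which encodes synaptophysin, held 1, 0 and 1.

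Dense-core granule genes held 27, 49 and 52 regions, or 0.611, 1.51 and 1.65 times the number from territory. Without Ptprn2 the ratios were 0.250, 1.24 and 1.03. Chga encodes chromogranin A, the granule protein used as a neuroendocrine marker. It held no Foxa1 region at 2 weeks, 8 at 6 months and 7 Foxa2 regions, where the mean of its bin was 1.11, 0.587 and 0.576. All of them lay upstream of the start, the Foxa1 regions between 0.321 and 27.0 kb, with fold enrichments of 2.84 to 5.21. Of the 8 Foxa1 regions 6 overlapped a Foxa2 region. Chgb (1, 1 and 0), Scg2 (4, 4 and 3) and Scg3 (1, 0 and 0) held fewer than Chga at 6 months and more at 2 weeks. Vgf held none in any list, and Scg5, like Chga, held none at 2 weeks and regions of both factors at 6 months.

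Pcsk1, the prohormone convertase that acts early on proinsulin and proopiomelanocortin, held 2, 12 and 9 regions, and none of the 12 overlapped a 2-week region. Its gain did not hold in every setting: the counts were 1, 3 and 6 at or above a -log10 q of 5, where Foxa2 exceeded Foxa1, and 2, 6 and 6 after joining. The 12 Foxa1 regions formed groups: 2 lay 55.4 to 57.0 kb below the gene, 2 in the body near its start, one of them over the promoter printed above, and 8 at 25.3 to 68.5 kb beyond the other end. The strongest was 55.4 kb below the gene (chr13:75032815-75035703 for Foxa1, fold enrichment 9.22; 11.5 for Foxa2). Scg5, which encodes the 7B2 chaperone of the second convertase, held 0, 4 and 3. The second convertase, Pcsk2, held 0, 2 and 2, and Cpe, the carboxypeptidase that trims prohormones after cleavage, held 0, 1 and 1. Both have territories in the highest bin, where the mean was 6.54 Foxa1 and 6.32 Foxa2 regions at 6 months, so they were below that mean. The territory of Cpe, 213 kb, lay near the lower limit of that bin (201 kb).

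Ptprn2, a transmembrane granule protein of the phosphatase family, held 18 Foxa1 regions at 2 weeks, 17 at 6 months and 26 Foxa2 regions at 6 months. The similar Foxa1 counts came from mostly different places, with 5 of the 17 overlapping a 2-week region. Its strongest 2-week region, chr12:116482117-116485377 with a fold enrichment of 17.1, lay 1.83 kb before the start and overlapped no region of either factor at 6 months. The related Ptprn held 1, 0 and 1.

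Between the factors at 6 months the differences were small for most members. Foxa2 regions were more numerous than Foxa1 regions at 11 members, fewer at 20 and equal at 23, of which 16 had none of either. Genes of like territory would give 10.3 members with more and 10.7 with fewer, and over all genes 13.7% held more and 13.2% fewer. An excess of at least 5 Foxa2 regions was counted at 4 members, or 7.41% (Ptprn2 with 9 more, and Snap25, Stxbp5 and Syt1 with 5 more each), against 0.375% of all genes and 0.522 members from territory. A deficit of at least 5 was counted at 0 members, against 0.768% of all genes and 1.06 from territory. The largest deficits were 4 regions, at Cadps2 and Rims2, followed by 3 at Syt7 and Pcsk1. After joining regions less than 1 kb apart, the excess of at least 5 ended at Ptprn2. Ptprn2, Snap25 and Syt1 were also the members with most Foxa2 regions. No member had an excess of 5 when only regions at or above a -log10 q of 5 were counted: Snap25 then held 14 Foxa1 and 9 Foxa2 regions, and Syt1 held 14 of each.

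Most 6-month regions of the module were absent from the 2-week list. Of the 271 Foxa1 regions, 59 overlapped a 2-week Foxa1 region by at least 1 bp, or 21.8% (exact Clopper-Pearson 95% interval 17.0 to 27.2%), against 35.1% of all 6-month Foxa1 regions and 31.3% of those at genes in the highest bin of territory. For Foxa2 the share was 65 of 270, or 24.1% (19.1 to 29.6%), against 36.8% and 32.5%. Such intervals treat neighbouring regions as independent, so they are too narrow. In the other direction, 58 of the 201 2-week regions, or 28.9% (22.7 to 35.6%), overlapped a 6-month Foxa1 region. The share was 21.8% over the whole list and 23.5% at genes in the highest bin of territory. The latter lies within the interval of the module. The overlap between the factors was higher. Of the 271 Foxa1 regions of 6 months, 191 overlapped a Foxa2 region, or 70.5% (64.7 to 75.8%), against 63.4% of the list. Regions with Foxa2 and without a 2-week Foxa1 region made up 51.7% (45.5 to 57.7%) of the module's Foxa1 regions of 6 months and 36.1% of the whole list.

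In strength the module's regions were near the whole lists, slightly above them for Foxa1. The median -log10 q was 6.64, 4.93 and 4.68, where the whole lists had 5.79, 4.37 and 4.51. The strongest 10% of each list held 12.4%, 11.8% and 10.0% of the module's regions, and the weakest 10% held 8.46%, 4.06% and 7.41%. The 4.06% in the 6-month Foxa1 list had a counting interval of 2.04 to 7.15%. The median fold enrichment was 4.15, 3.55 and 3.75 for the module and 4.00, 3.43 and 3.75 for the lists. At or above a -log10 q of 5, the module held 127, 132 and 120 regions (63.2%, 48.7% and 44.4% of its regions, against 59.8%, 42.8% and 43.2% of the lists), Snap25 held 1, 14 and 9, Syt9 held 0, 6 and 4, and Cadps held 16, 4 and 4.

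Most of the regions lay inside the genes, as over all genes, and most lay away from known start sites. In-body shares were 67.2%, 70.8% and 69.6%, where bodies make up 70.1% of the members' territory. Over all genes the shares were 63.7%, 66.9% and 66.8%, with bodies at 54.5% of territory. Among regions of members with a known start, 1 of 158, 6 of 203 and 5 of 205 lay within 1 kb of it. The median distance to the start was 73.1, 71.9 and 72.7 kb. Distances to the start were not computed over all genes.

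The wider machinery was described by 102 related genes of the same pathway that are not members, among them further syntaxins, synaptotagmin-like proteins, Rab27 and exocyst subunits. They held 421, 294 and 291 regions, or 1.33, 1.34 and 1.37 times the number from territory. Regions were held by 58, 50 and 53 of the 102 genes, against 56.9, 42.0 and 43.5 from territory. No region at 2 weeks and regions of both factors at 6 months were found at 11 of them (10.8%). Genes of like territory would give 4.51, so this pattern was above that number here too, as at the members. A gain of at least 5 Foxa1 regions was counted at 7 of the 102 and a loss at 15, with 4.21 and 11.0 from territory. At least 5 more Foxa2 than Foxa1 regions were counted at 0, with 0.654 from territory, and at least 5 fewer at 2, with 1.34. The largest gains were at Rimbp2 (0, 12 and 9 regions), which encodes an active zone protein that binds RIM, Rims3 (0, 11 and 6) and Stx8 (7, 18 and 14), an endosomal syntaxin. The largest losses were at Stxbp6 (38, 1 and 1), Exoc6b (26, 7 and 8), an exocyst subunit, and Pam (23, 9 and 7), the enzyme that amidates peptide hormones. Whether the module's change in ratio between 2 weeks and 6 months differs from that of these related genes was not tested.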

How the data were processed

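ChIP-seq peak lists of 1 library each were used. Per the submitters' processing notes, the build was mm10 and the tools were MACS2 2.1.1 and Bowtie2, with HOMER, bedtools 2.25.0, Trim Galore 0.5.0, DiffBind 2.12.0 and deepTools 3.2.1 also listed, without roles or order. The deposited files give, per peak, the authors' fold enrichment (a ratio), the authors' -log10 p-value, the authors' -log10 q-value, and the authors' score. The score and the p-value were not used. The lists end at a q-value of 0.05. Depth is not given.

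Regions on chromosomes 1 to 19, X and Y were used, which left out 12, 2 and 3. Genes came from RefSeq, with body limits and no exons. Territories were ranked into 10 bins and members set beside the other genes of their bin. Intervals are exact 95% counting intervals, which treat regions as independent. Python 3.11.15, numpy 2.4.6, pandas 2.3.3 and scipy 1.17.1 were used, and matplotlib 3.10.9 for figures. Assignment and overlap were tested on simulated data.

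The members and lists were chosen with earlier results of these data known. Named by rule were the 10 members with most regions, the 5 largest gains and 5 largest losses, the 3 largest excesses and 3 largest deficits of Foxa2 (ties by list order, with the tied members given too), the strongest region of each list, members with no region and up to 4 members per role group. Further members were named to account for all counts. Alternatives were a -log10 q of at least 5, equal list lengths, joining at 1 kb, a summit within 5 kb of a gene end, bodies alone or with 10 kb, 20 bins, a difference of 3 regions, a reciprocal overlap of 50%, summits within 200 bp and leaving out the member with most regions. Leaving out Snap25 and Syt1 together, and the member with most Foxa1 regions at 6 months from each role group, was chosen after seeing the data.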

Additional observations from a re-analysis of the deposited data

How the results depend on the processing

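The module's ratio to genes of like territory was below 1 at 2 weeks and above 1 for both factors at 6 months under all alternatives run. At 2 weeks it was 0.571 within 5 kb of a gene end, 0.772 for bodies with 10 kb to either side and 0.780 for bodies alone. For Foxa1 at 6 months it was 1.94 at a -log10 q of at least 5, 2.03 within 5 kb of a gene end, 1.47 with 20 bins and 1.44 without Snap25 and Syt1. For Foxa2 it was 2.17 within 5 kb of a gene end, 1.51 with 20 bins and 1.41 without Snap25 and Syt1. Within 5 kb of a gene end, 17 members held a 2-week Foxa1 region and 23 a 6-month Foxa1 region. The share of all genes with a region so placed was not computed, so both counts lack a background. Within the same 5 kb, 1 member gained at least 5 Foxa1 regions (0.265% of all genes) and 0 lost as many (0.420% of all genes). In this setting 0 members had an excess of Foxa2 (0.00457% of all genes), and the difference at Cadps2 reversed to 1 more region at 6 months. Joining at 1 kb left 5 members with a gain, against 0.777% of all genes and 1.28 members from territory. It moved the overlaps with the 2-week list and with Foxa2 to 28.9% and 83.8%. The shares over the whole joined lists were not computed. At a -log10 q of at least 5, 6 members lost at least 5 Foxa1 regions (4.84% of all genes, 5.69 members from territory). At that threshold 0 members had an excess of Foxa2 (0.0366% of all genes) and 1, Snap25, had a deficit (0.105% of all genes). A difference of 3 regions gave 12 gains and 6 losses of Foxa1 regions, and 4 excesses and 4 deficits of Foxa2. The share of all genes past a difference of 3 was not computed, so these counts have no background. Bodies alone gave 2 members with an excess of Foxa2, against 0.233% of all genes and 0.370 members from territory. A reciprocal overlap of 50% gave 9.59% with the 2-week list (14.5% of all regions) and 41.0% with Foxa2 (41.0% of all), and summits within 200 bp gave 13.3% (23.8%) and 50.2% (48.6%). The higher overlap with Foxa2 at the module than over the list was thus not kept under reciprocal overlap. No paired analysis was possible because each group has 1 library, and for the same reason no replicate could be left out.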
